A study of Sus scrofa with 32 samples.

Results

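In testis RNA of 32 pigs, 36 of 25322 Ensembl genes were on in some animals and off in others. On meant 5 CPM or more (counts per 1000000 gene counts of the library), off meant 0.6 CPM or less, and each gene had to be on in at least 6 libraries and off in at least 6. The on limit alone was met by 11199 genes and the off limit alone by 12266. Those CPM values chose the 36 genes, so their on and off levels, and the fact that they vary widely between pigs, are given as a description with no test. Of the 36 genes, 14 had a symbol: CYP1A2, ATP2C2, SMPD3, CDH17, RNF181, OPN4, ZNF185, SMDT1, SLC5A2, PPP1R11, PGGHG, SNCG, DSG3 and MED24. The other 22 had an Ensembl identifier alone.

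The pigs, all male, were crosses of Duroc with Landrace/Yorkshire from Denmark and weighed around 100 kg at slaughter. The labels placed 10 pigs in High AS on control diet, 7 in High AS on chicory, 7 in Low AS on control diet and 7 in Low AS on chicory, where AS stands for androstenone and skatole, the compounds of boar taint. A further pig on chicory had no AS group. Chicory, a root rich in inulin, made up 15% of the feed over the last 3 days.

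Bulk testis RNA mixes germ cells at every stage with Sertoli cells, which nurse them, and Leydig cells, which make androgens and androstenone. A transcript made by a cell type rises and falls with the amount of that cell type, whereas a level set by an inherited allele is alike among relatives. In bulk samples, fewer cells of a type and less RNA per cell cannot be told apart. Pigs of the same sow share maternal alleles and a litter or maternal environment, and within a sow all pigs also had the same sire breeding value, apart from 1 sow with 2 values. Likeness within a sow therefore covers dam, sire and shared environment, which cannot be told apart here. It can also cover the index set of the libraries. In 3 of the 10 sows with at least 2 pigs, all pigs had the same of 4 index sets. The main models had library set, described below, but not index set as a term.

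The libraries came in 2 sets by name. Numbered libraries, whose names carry an added number, were 8, with 10585625 to 20349500 counts in genes (median 13864974). The other 24, called plain, had 1855174 to 5993637 (median 3488764), so a limit of 8000000 counts separated the sets completely. High AS pigs gave 6 of the 8 numbered libraries, and set was a term in all main models. All numbered libraries had the same index set, which no plain library had, so the sets differ in index as well as depth. Some numbered libraries, all of High AS pigs, were on a different sequencing lane from all other libraries. The on limit of 5 CPM equalled 9.28 counts in the smallest library, and the off limit of 0.6 CPM equalled 1.11 counts there and 12.2 in the largest. A count of 0 allows a level of up to 0.147 to 1.62 CPM (3 counts, counting error only), and this ceiling was above the off limit in 22 libraries, all plain. Of the testis markers, PRM1, a protamine of elongating spermatids, was high in every library at 758 to 22542 CPM (median 11345). SYCP3 of meiotic chromosomes was as well, at 327 to 582 CPM (median 445). Not every listed marker was high, since LHCGR of the Leydig list was at 0.25 to 20.5 CPM (median 3.09). RNASE10, an epididymal gene, was at 0 in all 32. ADAM7, the 1 gene of the same marker list that passed the filter on low counts, was detected throughout. It was at 4.375 to 5.19 log2 CPM in numbered and 3.62 to 5.74 in plain libraries, so the epididymal markers gave no single answer. The library labelled Low AS chicory replicate 1 stood apart with a mean of 7.39 log2 CPM over 17 elongating spermatid markers, where the next lowest had 9.22 and the median was 10.4. Without it the rule found 32 genes, all of them among the 36.

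Over the 36 genes and 32 libraries there were 1152 states, of which 439 were on, 370 off and 343 between the limits. Of the off states, 237 rested on a count of 0. Each library had 10 to 18 of the genes on and 7 to 16 off. The genes ranged from 6 to 25 libraries on and from 6 to 25 off. For 6 genes no library fell between the limits, which is called a clean gap here. Another 19 genes had 10 or more libraries between the limits, though some of these, such as CDH17, had a gap elsewhere. None of the 36 was on the 15 lists of cell type markers. By family, CYP1A2 is a xenobiotic cytochrome and SLC5A2 a solute carrier, and ZNF185 matched the zinc finger naming pattern.

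**Figure D1:**
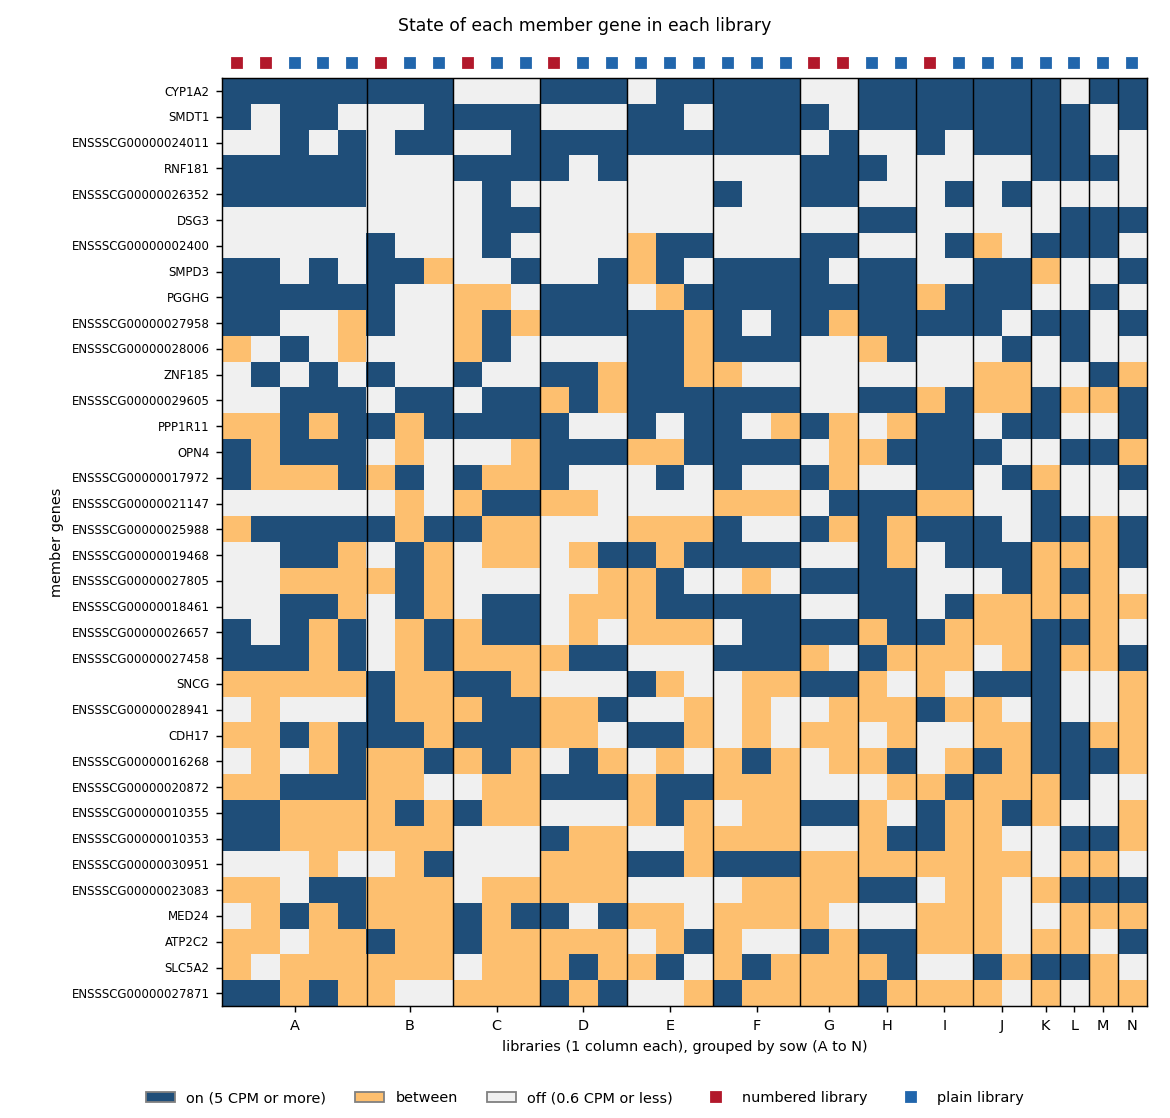
State of each of the 36 genes (rows) in each of the 32 libraries (columns), with libraries grouped by sow (A to N) and squares above marking the library set; on is 5 CPM or more, off is 0.6 CPM or less, and the rest lie between. CYP1A2, SMDT1, RNF181, DSG3 and 2 genes without a symbol have no library between the limits, whereas ATP2C2 and SLC5A2 have 19 each.

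The 6 genes with a clean gap were CYP1A2, SMDT1, RNF181, DSG3, ENSSSCG00000024011 and ENSSSCG00000026352. CYP1A2, a cytochrome best known for clearing drugs and skatole in the liver, was on in 25 libraries at 22.1 to 62.5 CPM (median 41.5). In the other 7 libraries CYP1A2 reached at most 0.0766 CPM, and 6 of these had a count of 0. SMDT1, which encodes a subunit of the mitochondrial calcium uniporter, was on in 22 libraries at 11.3 to 90.1 CPM (median 45.4) and at most 0.479 CPM in the other 10. RNF181, a RING-type ubiquitin ligase, was on in 16 libraries at 9.06 to 107 CPM (median 46.6) and off in 16 at 0.32 CPM or less, with 11 at a count of 0. For these 3 genes the lowest library that was on lay far above the highest that was off.

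ENSSSCG00000024011 was on in 20 libraries at 18.3 to 43.2 CPM (median 25.6) and had a count of 0 in all other 12. ENSSSCG00000026352 was on in 11 at 7.02 to 18.0 CPM (median 10.9) and at most 0.479 CPM in 21. DSG3, a cadherin of epithelial desmosomes, was on in 7 libraries at 6.0 to 14.3 CPM (median 7.67) and off in 25 at 0.253 CPM or less, with 21 at 0. A seventh gene, ENSSSCG00000002400, was at 0 in 20 libraries, on in 10 at 5.40 to 14.2 CPM (median 9.83) and between the limits in only 2.

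The other genes with a symbol had libraries between the limits, though CDH17 and SMPD3 also had a wide gap. CDH17, a cadherin typical of intestinal epithelium, was on in 11 libraries at 15.7 to 45.4 CPM (median 26), off in 6 and between in 15. It had no library between 2.04 and 15.7 CPM, with 21 below this gap and 11 above. SMPD3, a neutral sphingomyelinase, was on in 17 at 7.0 to 23.1 CPM (median 15.3) and off in 12. Its gap ran from 1.08 to 7.0 CPM, with 15 libraries below and 17 above. OPN4, the photopigment melanopsin, was on in 17 at 6.12 to 26.8 CPM (median 13.0) and off in 7. SNCG, gamma-synuclein, was on in 9 at 5.39 to 14.4 CPM (median 7.74) and off in 9. PGGHG, a glucosidase acting on hydroxylysine-linked sugars of collagen, was on in 21 at 5.12 to 16 CPM (median 9.88) and off in 7. PPP1R11, an inhibitor of protein phosphatase 1, was on in 17 at 5.31 to 11.1 CPM (median 7.66) and off in 8. ZNF185, a LIM domain protein of the actin cytoskeleton, was on in 9 at 5.51 to 21.6 CPM (median 6.44) and off in 17.

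ATP2C2, a calcium and manganese pump of the secretory pathway, was on in 7 at 5.33 to 7.60 CPM (median 6.05) and off in 6. SLC5A2, the sodium and glucose cotransporter of the kidney tubule, was on in 7 at 5.11 to 12.6 CPM (median 6.69) and off in 6. MED24, a subunit of the Mediator complex, was on in 6 at 5.92 to 7.34 CPM (median 6.54) and off in 8. In these 3 genes most libraries lay between the limits. At the edge of the rule, with the sixth highest and sixth lowest CPM as measures, ATP2C2 had 5.58 and 0.578, ENSSSCG00000027871 had 6.87 and 0.578, and ENSSSCG00000028941 had 5.19 and 0. Just outside were ENSSSCG00000010411 with 4.91 and 0, KCNK2, a potassium channel, with 7.66 and 0.639, and ALB, serum albumin, with 5.39 and 0.647. The genes at the edge therefore differed little from those next to them outside it.

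Pigs of the same sow were more often in the same state than pigs of different sows. The 32 pigs came from 14 sows, of which 10 had at least 2 pigs (28 pigs, at most 5 from a sow), which gave 29 pairs of pigs with the same sow and 467 pairs with different sows. Each gene was counted in each pair in which neither pig was between the limits. Over all 36 genes, 420 of 565 such combinations of gene and same-sow pair were alike (74.3%). Of the combinations with pairs from different sows, 4688 of 8830 were alike (53.1%). Pairs share pigs and genes share libraries, so these combinations are not independent, and the shares are a description with no test. For 31 genes the share of alike pairs was higher within sows, and for 5 it was lower, namely ENSSSCG00000016268, ENSSSCG00000017972, ENSSSCG00000026657, ENSSSCG00000027958 and ENSSSCG00000029605.

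The 6 genes with a clean gap did not all follow the sow. CYP1A2 was on in every pig of 7 sows, off in every pig of 2 and in both states in 1, so that 27 of 29 pairs of the same sow were alike (93.1%) against 63.0% of other pairs. RNF181 was on throughout 3 sows, off throughout 5 and in both states in 2, with 89.7% of pairs alike against 45.8%. DSG3 was on throughout 1 sow, off throughout 8 and in both states in 1, with 93.1% against 63.0%. SMDT1, by contrast, was in both states in 4 of the 10 sows, with 62.1% of pairs alike against 55.3%. ENSSSCG00000024011 was in both states in 5, with 58.6% against 51.2%. ENSSSCG00000026352 was in both states in 4, with 79.3% against 51.8%.

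Among the genes with libraries between the limits, OPN4 had 15 of 16 pairs of the same sow alike (93.8%) against 54.6% of other pairs. SMPD3 had 52.0% of 25 pairs alike against 49.6%. CDH17, ENSSSCG00000010353, ENSSSCG00000010355, ENSSSCG00000020872, ENSSSCG00000027871 and ENSSSCG00000028941 had no pair of the same sow with 1 pig on and 1 off, over only 5 to 9 pairs each. By this measure, CYP1A2, RNF181, DSG3 and OPN4 were alike in nearly all pairs of the same sow, while SMDT1, SMPD3 and ENSSSCG00000024011 were within a few points of other pairs.

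**Figure D2:**
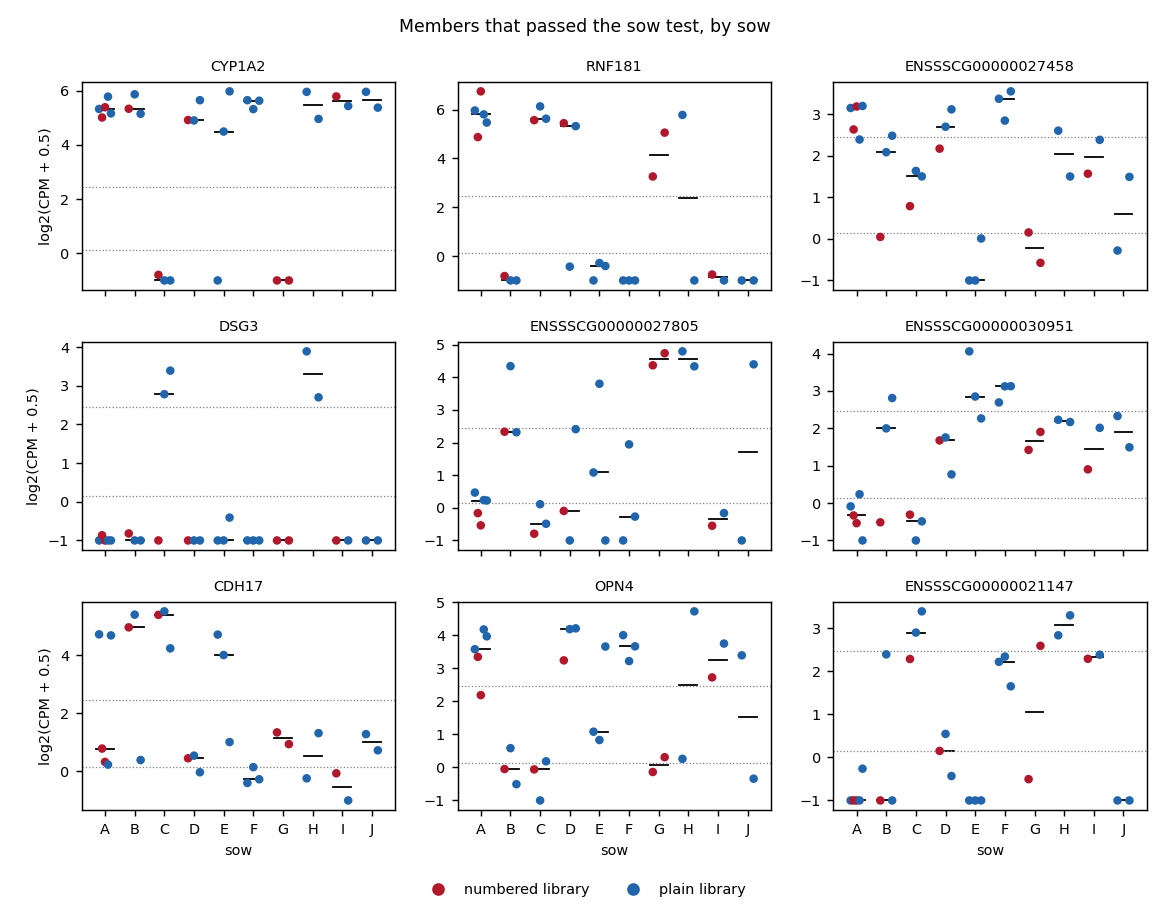
Level of the 9 genes that passed the sow test, as log2(CPM + 0.5) on the vertical axis, in the 10 sows with at least 2 pigs (A to J) on the horizontal axis, with 1 point per pig coloured by library set, bars at sow medians and dotted lines at the on and off limits. CYP1A2 and RNF181 separate into sows wholly above 5 CPM and sows wholly below 0.6 CPM, apart from 1 mixed sow for CYP1A2 and 2 for RNF181.

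All 36 genes passed the filter on low counts in each of the tests below, as the rule made likely, since each was at 5 CPM or more in at least 6 libraries. In the sow test, edgeR's quasi-likelihood test of all sow terms together with Benjamini-Hochberg adjustment over all genes (28 pigs, diet and library set as terms), 9 of the 36 genes passed 0.05, against a background of 0.455% of 13623 genes. The rule took genes that differ widely between pigs, so a share above the background does not by itself set these genes apart from equally variable ones. At an unadjusted p under 0.05 there were 26 of the 36 (72.2%), against 17.5% of all genes. The 9 genes made up 14.5% of the 62 genes called.

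The smallest adjusted p in the sow test belonged to CYP1A2 (0.000109) and then RNF181 (0.00165), ENSSSCG00000027458 (0.00633), DSG3 (0.00811), ENSSSCG00000027805 (0.0134), ENSSSCG00000030951 (0.0239), CDH17 (0.0254), OPN4 (0.0326) and ENSSSCG00000021147 (0.0498), by edgeR with Benjamini-Hochberg adjustment. When each of the 28 pigs was left out in turn, CYP1A2, RNF181, DSG3 and ENSSSCG00000027458 passed in all 28 fits and OPN4 in 13. In the plain libraries alone, with fewer pigs, 2 of the 36 passed (share over all genes not given). There the adjusted p of CYP1A2 was 0.17 and that of RNF181 0.0692. DESeq2 gave DSG3 an adjusted p of 0.961, and limma voom gave RNF181 0.0921, DSG3 0.0728, OPN4 0.0587 and CDH17 0.164. With index set in place of library set, edgeR's adjusted p was 0.0621 for DSG3, 0.121 for OPN4 and 0.141 for ENSSSCG00000027805, so these no longer passed. CYP1A2 (0.00241), RNF181 (0.00727), ENSSSCG00000027458 (0.0141), CDH17 (0.018) and ENSSSCG00000030951 (0.0366) still passed with index set. In the main sow test by edgeR SMDT1 had an adjusted p of 0.224, ENSSSCG00000026352 0.172, SMPD3 0.533 and ENSSSCG00000024011 0.601, none of which passed.

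Cell content was measured by 4 scores, each the mean log2 CPM of marker genes that are not among the 36, for Leydig cells (7 genes), Sertoli cells (8), elongating spermatids (17) and macrophages (6). Tested together over all 32 pigs with edgeR's quasi-likelihood test and Benjamini-Hochberg adjustment, the scores were associated with 9 of the 36 genes (25%), fewer than the background of 48.0% of all genes tested. The 9 were ENSSSCG00000027458 (adjusted p = 0.000178), SLC5A2 (0.000481), ENSSSCG00000016268 (0.00146), ENSSSCG00000018461 (0.00429), ENSSSCG00000029605 (0.00541), ENSSSCG00000019468 (0.0169), OPN4 (0.0292), ENSSSCG00000010353 (0.0314) and ENSSSCG00000027871 (0.0357). Without Low AS chicory replicate 1, OPN4 (0.052) and ENSSSCG00000010353 (0.0548) no longer passed.

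On single scores, with slopes as log2 change per SD of the score, 2 genes rose with the Sertoli score, against a background of 2.28% of genes rising and 2.36% changing in either direction. They were ENSSSCG00000016268 by 0.91 (SE 0.22, edgeR adjusted p = 0.0177) and SLC5A2 by 0.73 (SE 0.19, adjusted p = 0.0324). On the elongating spermatid score 2 genes rose, against a background of 14.9% rising and 26.2% changing. They were ENSSSCG00000027458 by 2.01 (SE 0.36, adjusted p = 5.72e-05) and ENSSSCG00000027871 by 1.28 (SE 0.43, adjusted p = 0.0275). Without Low AS chicory replicate 1 all 4 slopes still passed. No slope on the Leydig score (background 1.06%) or the macrophage score (background 0.494%) passed in edgeR. At an unadjusted p under 0.05 there were 4 of the 36 on the Leydig score, against 6.62% of all genes, and 7 on the macrophage score, against 15.7%.

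Sow and cell scores were then put in the same model, which left 12 residual degrees of freedom for 28 pigs. In edgeR with Benjamini-Hochberg adjustment, sow at given cell scores passed for 6 of the 36 (background 0.264%; 26 at an unadjusted p under 0.05, background 14.5%), and the cell scores at given sow passed for 9 (background 28.5%). RNF181 was the 1 gene that passed for sow and not for the cell scores (sow adjusted p = 0.00313). ENSSSCG00000010353, ENSSSCG00000016268, OPN4 and SLC5A2 passed for the cell scores and not for sow, and these 4 had also passed the cell test over all 32 pigs. With a set of 3 scores (Leydig, spermatogonia, elongating spermatid) none of the 4 passed either cell test. With sow in that model, edgeR's adjusted p was 0.125 for ENSSSCG00000010353, 0.166 for ENSSSCG00000016268, 0.388 for OPN4 and 0.128 for SLC5A2, so their calls depend on which scores are used. CYP1A2, ENSSSCG00000002400, ENSSSCG00000020872, ENSSSCG00000028941 and SNCG passed for both, and 26 genes passed for neither. A miss in so small a model does not show that sow or cell content has no part.

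CYP1A2 thus passed for sow with the scores in the model (edgeR adjusted p = 1.24e-08) and passed for the scores with sow in the model (0.000189). Within sows CYP1A2 rose with the elongating spermatid score by 1.04 per SD (SE 0.16, adjusted p = 0.000132). That slope was 1 of 7 called on this score within sows, 5 rising (background 11.0%) and 2 falling (background 5.59%), against 16.6% in either direction. ENSSSCG00000002400, which was at 0 in 20 libraries, rose by 5.86 per SD (SE 0.56), and ZNF185 fell by 1.41 (SE 0.44). In the 1 sow with CYP1A2 in both states, the pig with CYP1A2 off was Low AS chicory replicate 1. Without that library the background was 0.896%, and of the 7 slopes 1 still passed, that of ENSSSCG00000002400 (8.57, SE 0.84, edgeR adjusted p = 0.0191). That slope ranged from 2.07 to 8.57 when 1 pig was left out and passed in 23 of 28 fits. In the main fit the slope of ENSSSCG00000002400 on the Leydig score was 1.60 with an SE of 6388. The fit of this gene was thus unstable, and its slopes are not reliable estimates. The CYP1A2 slope was 0.63 without the library (SE 0.19, adjusted p = 0.176). Other slopes that no longer passed were not all smaller, with 1.44 for ENSSSCG00000010353 (1.47 before), 3.76 for ENSSSCG00000028941 (3.71 before) and 1.78 for ENSSSCG00000020872 (1.13 before), while ENSSSCG00000019468 turned from -0.64 to 0.46. None of the 36 passed on the Leydig (background 0.213%), Sertoli (0.00734%) or macrophage score (0.0%) within sows. At an unadjusted p under 0.05 there were 3 on the Leydig score (background 5.05%), 10 on the Sertoli score (background 6.8%) and 5 on the macrophage score (background 8.58%).

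The lowest 2 elongating spermatid scores, 7.39 and 9.22, belonged to pigs of this same sow. Leaving out High AS control replicate 7, a pig of that sow, raised the sow test to 21 of the 36 genes and to 16.1% of all genes. Without Low AS chicory replicate 1 the sow test called 9 of the 36, of which 8 were shared, with a background of 0.363%. With cell scores in the sow model, leaving out 1 pig gave 4 to 15 genes, and CYP1A2, RNF181 and ENSSSCG00000002400 passed in all 28 fits. The highest number came without High AS chicory replicate 5, where the share of all genes called was also highest, at 2.54% against 0.264% with all 28 pigs. Under other settings of this sow test CYP1A2 passed in all 8, but RNF181 had an adjusted p of 0.117 with limma voom. ENSSSCG00000002400 had 0.983 with DESeq2, 0.199 with no library set term, 0.085 with limma voom and 0.0582 with 3 cell scores, and for the cell scores at given sow DESeq2 gave it 0.92.

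As a share of the variance of log2(CPM + 0.5) left after diet and library set, sow took a median of 65.4% in the 36 genes (24.5 to 87.8%), against a median of 44.3% over 14727 genes with at least 1 CPM in at least 6 libraries. The 4 cell scores took a median of 23.5% (0.158 to 59.6%), against 36.5% over all genes. The median of the 36 genes was therefore above that of all genes for sow and below it for cell content, though not every gene of the 36 was. Genes chosen for wide differences could be so without being different in kind. RNF181 had 84.1% for sow and 6.71% for the scores, and DSG3 had 81.3% and 23.1%. CYP1A2 had 87.8% and 46.6%, and OPN4 had 72.0% and 59.5%. SLC5A2 had 26.1% for sow and 55.2% for the scores, and ENSSSCG00000016268 had 29.1% and 46.7%. Shares for sow and scores overlap and do not add up, and the sow terms outnumber the scores.

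**Figure D3:**
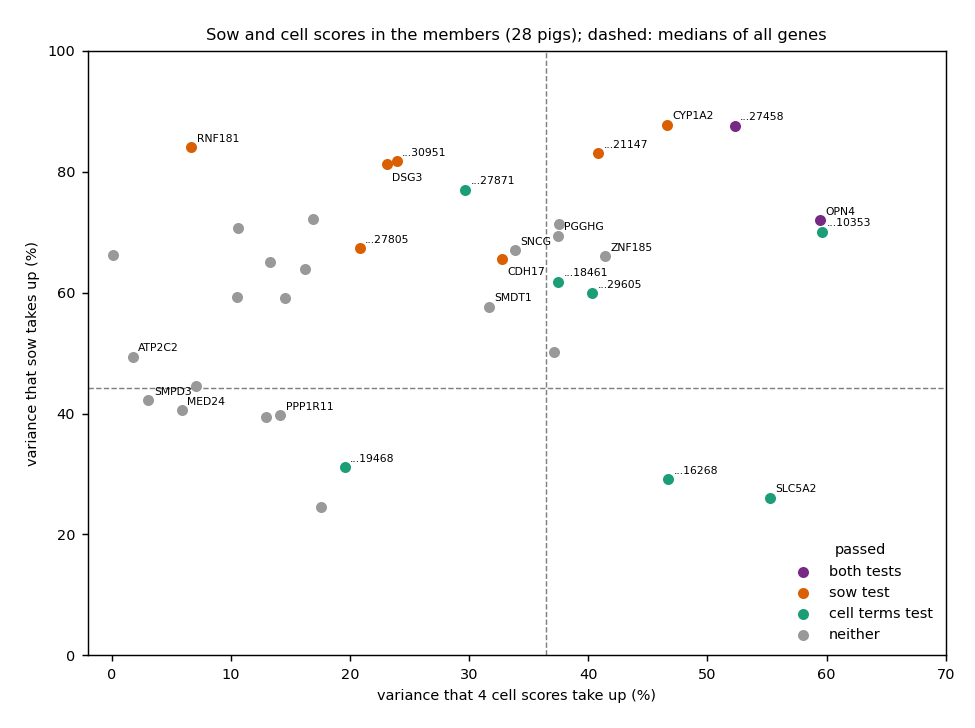
Share of the variance of log2(CPM + 0.5) taken by sow (vertical axis, %) and by the 4 cell scores (horizontal axis, %) after diet and library set, 1 point per gene, with dashed lines at the medians of all genes, identifiers shortened to their last digits and colours for the tests passed. RNF181 and DSG3 lie high for sow and low for the scores, SLC5A2 and ENSSSCG00000016268 the other way, and CYP1A2 and OPN4 are high for both.

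In numbered libraries 34.4% of states were on and 38.5% off, and in plain libraries 39.4% were on and 30.0% off. In the test of numbered against plain libraries (31 pigs, AS group and diet as terms, edgeR's quasi-likelihood test with Benjamini-Hochberg adjustment), 10 of the 36 genes passed (27.8%), a share near the background of 29.1%, so the count says nothing particular to these genes. Of these, 2 were higher in numbered libraries (background 13.4%) and 8 were lower (background 15.7%). For 3 genes every numbered library lay below every plain library, which held for 0.394% of 14727 genes. These 3, all without a symbol, had met the on limit through plain libraries alone and the off limit through numbered libraries alone. The separation is thus what brought them under the rule, and their values are given as a description.

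ENSSSCG00000019468 was at 0 to 0.0945 CPM in the 8 numbered libraries (median 0) and at 1.04 to 22.8 CPM in the 24 plain ones (median 5.82), a log2 difference of -7.51 (SE 0.73). ENSSSCG00000018461 was at 0 to 0.23 CPM (median 0.0457) against 0.853 to 15.0 CPM (median 5.84), a difference of -5.85 (SE 0.59). ENSSSCG00000029605 was at 0.0983 to 1.74 CPM (median 0.308) against 2.25 to 40.1 CPM (median 14.2), a difference of -4.86 (SE 0.54). In the plain libraries ENSSSCG00000018461 was on in 13, and ENSSSCG00000029605 was on in all of these.

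Of the other genes lower in numbered libraries, ENSSSCG00000016268 had a median of 0.57 CPM against 2.90 CPM (log2 difference -2.48, SE 0.54) and SLC5A2 0.698 CPM against 3.04 CPM (-2.08, SE 0.46). DSG3 was off in all 8 numbered libraries, at 0.0666 CPM or less, and on in 7 of 24 plain ones (-6.28, SE 1.37). These 3 genes were on in no numbered library, so they met the on limit through plain libraries alone. Their differences are therefore given as a description as well. With sow as a block these 3 differences were smaller and did not pass in edgeR, at -1.61 for ENSSSCG00000016268 (adjusted p = 0.118), -1.25 for SLC5A2 (0.135) and -3.67 for DSG3 (0.0547). SNCG was higher in numbered libraries, at 0.087 to 14.4 CPM (median 6.30) against 0 to 8.10 CPM (median 1.54), a difference of 1.81 (SE 0.56, edgeR adjusted p = 0.0151). ENSSSCG00000010355 was higher as well, with medians of 6.65 CPM and 2.91 CPM, a difference of 1.48 (SE 0.47, adjusted p = 0.0183). In these genes other than the 3 with separate sets, the sets overlapped.

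**Figure D4:**
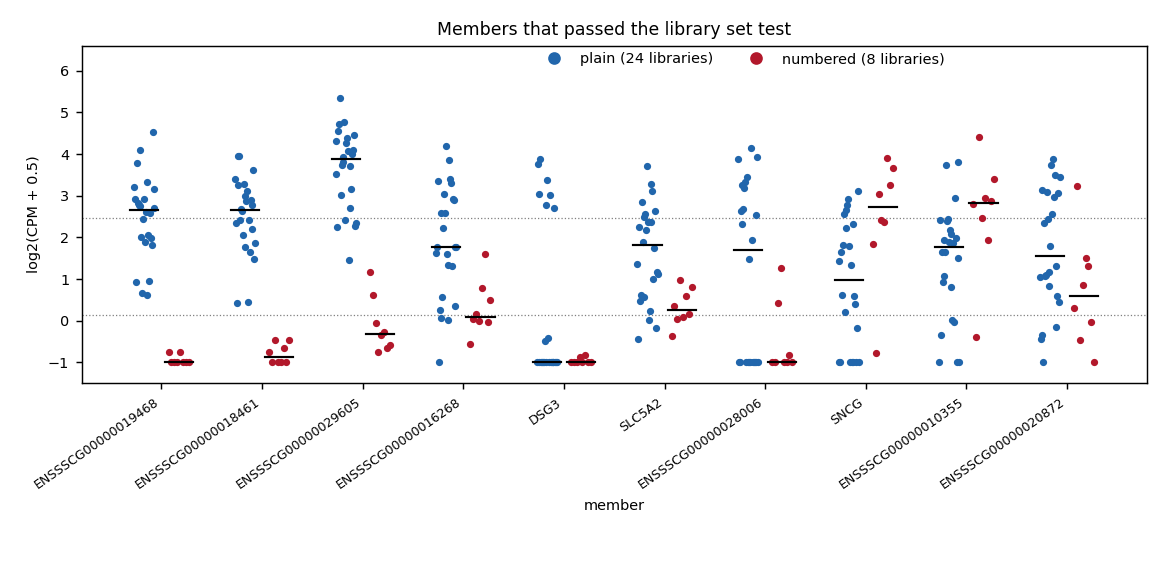
Level of the 10 genes that passed the library set test, as log2(CPM + 0.5), in 24 plain and 8 numbered libraries, with 1 point per library, bars at medians and dotted lines at the on and off limits. The sets do not overlap for ENSSSCG00000018461, ENSSSCG00000019468 and ENSSSCG00000029605 and overlap for the other 7.

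Other measures also differed between the sets. The share of reads in no annotated gene was 20.6 to 25.4% in numbered libraries (median 22.7%) and 22.3 to 39.6% in plain ones (median 30.3%). The Leydig score had a median of 6.6 log2 CPM in numbered and 7.53 in plain libraries, and the Sertoli score 3.77 and 4.22. The part of these measures and of lane in the gene differences was not tested, and index set cannot be told apart from library set here. Among genes called for library set, ENSSSCG00000016268, ENSSSCG00000018461, ENSSSCG00000019468, ENSSSCG00000029605 and SLC5A2 had also passed the cell test over all 32 pigs, which had library set as a term, and DSG3 had passed the sow test. For 14 of the 36 genes, among them SMDT1, ENSSSCG00000024011, ENSSSCG00000026352, SMPD3, PGGHG, PPP1R11, ZNF185, ATP2C2 and MED24, none of the tests of sow, of the cell scores together or of library set passed.

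No gene of the 36 was called for AS group. High AS pigs had 39.1% of states on and 32.8% off, and Low AS pigs 37.1% on and 31% off. Of the 36 genes, 35 were on in some and off in some pigs of both groups, and the exception, ENSSSCG00000026657, was on in 8 and off in 6 High AS pigs and on in 6 and off in none of the Low AS pigs. In the AS test (31 pigs, diet and library set as terms) edgeR's quasi-likelihood test with Benjamini-Hochberg adjustment called none of the 36, with a background of 0.0%. DESeq2 and limma voom also called none. At an unadjusted p under 0.05 there were 2 of the 36, against 2.3% of all genes.

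CYP1A2 was on in 14 and off in 3 High AS pigs (0 to 62.5 CPM, median 39.9) and on in 10 and off in 4 Low AS pigs (0 to 61.7 CPM, median 32.8), a log2 difference of 0.74 (SE 0.71, edgeR adjusted p = 0.988). CDH17 was at 0 to 33.1 CPM in High AS pigs (median 1.23) and at 0.33 to 45.4 CPM in Low AS pigs (median 1.71), a difference of -0.94 (SE 0.81). SMPD3 was on in 10 and off in 6 High AS pigs and on in 6 and off in 6 Low AS pigs, a difference of 0.84 (SE 0.85). OPN4 was on in 11 and off in 3 High AS pigs and on in 6 and off in 3 Low AS pigs, a difference of 0.63 (SE 0.64). Each of these 4 differences was near its SE, and the groups overlapped. Across settings that of SMPD3 ranged from 0.25 in plain libraries alone to 2.29 with sow as a block, with 1.85 in limma voom. RNF181 was on in 9 of 17 High AS and 7 of 14 Low AS pigs, and SMDT1 in 12 and 9.

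Androstenone itself, measured by the submitters in mg/kg, was 0.67 to 7.77 in High AS pigs (median 1.8) and 0 to 1.07 in Low AS pigs (median 0.54). With its log2 (0.5 mg/kg added) in place of the AS group, edgeR with Benjamini-Hochberg adjustment called none of the 36, against a background of 0.0227%. At an unadjusted p under 0.05 there were 5 of the 36, against 5.06% of all genes. CYP1A2 was on in 24 pigs with a median of 1.1 mg/kg and off in 7 with a median of 0.64 mg/kg, and RNF181 was on at a median of 1.11 and off at 1.07 mg/kg. MED24 had a slope of 0.45 per doubling (SE 0.22, adjusted p = 0.852), DSG3 of -0.67 (SE 0.40), OPN4 of 0.38 (SE 0.27) and SNCG of -0.40 (SE 0.34).

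The gene nearest to a call on androstenone was ENSSSCG00000020872, which rose by 1.22 per doubling (SE 0.26, edgeR unadjusted p = 3.36e-05, adjusted p = 0.0886). It was on in 10 pigs with 0.79 to 7.77 mg/kg (median 1.53) and off in 7 pigs with 0 to 1.43 mg/kg (median 0.52), so the ranges overlapped. Without either High AS control replicate 2 or High AS control replicate 7 it passed, with DESeq2 or with no filter on low counts it passed as well, and in the remaining fits that left out 1 pig it did not. Within the AS groups it was on in 6 and off in 2 of 17 High AS pigs, and on in 4 and off in 5 of 14 Low AS pigs. All 8 pairs of the same sow in which neither pig was between the limits were alike for this gene. Sow took 71.4% of its variance after diet and library set. In edgeR it did not pass the sow test (adjusted p = 0.0685) but passed for sow at given cell scores (0.0415). The androstenone model had no sow term, so the slope of 1.22 does not separate androstenone from sow. The gene was chosen for this account after its values were seen.

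**Figure D5:**
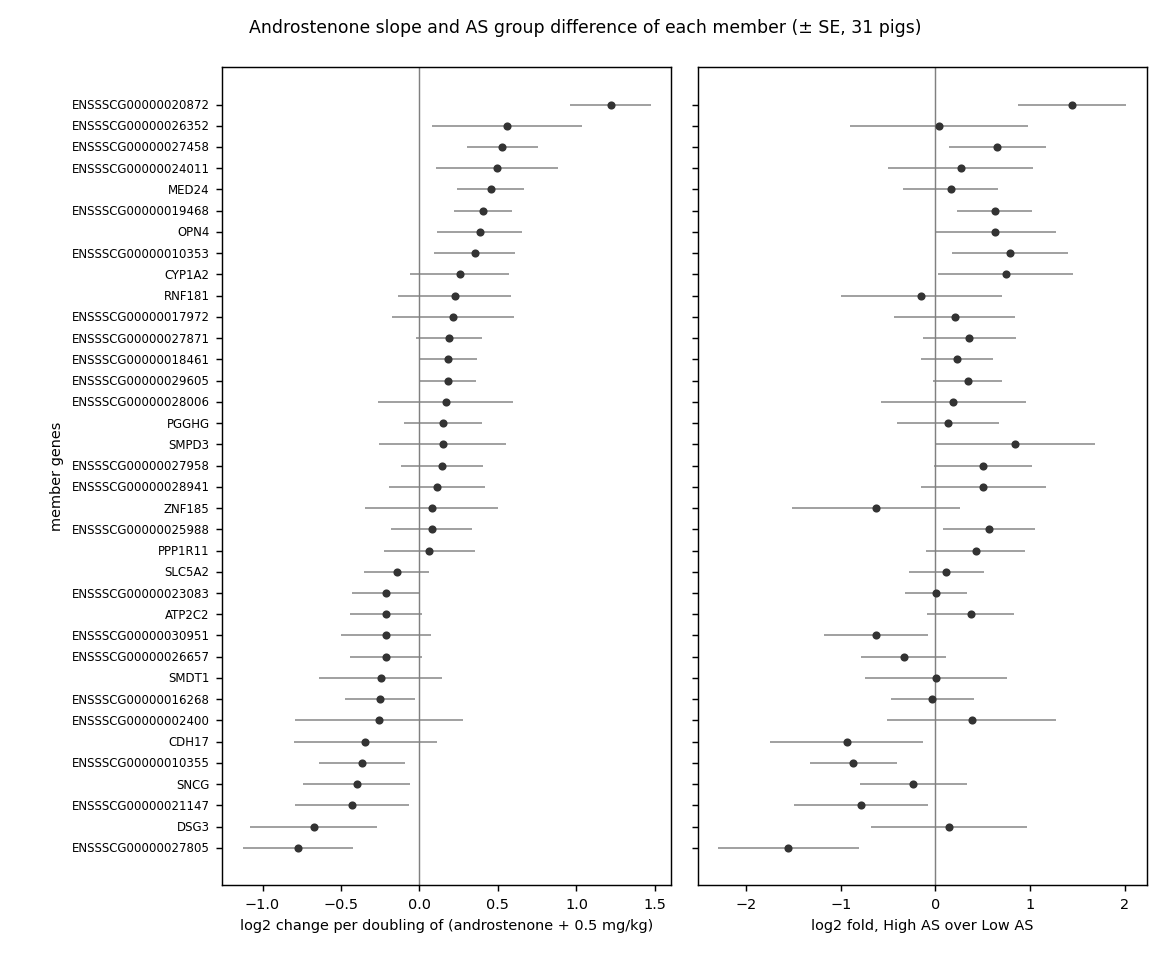
Effect of each of the 36 genes (rows) with its SE over 31 pigs, on the left as log2 change per doubling of androstenone plus 0.5 mg/kg and on the right as log2 fold of High AS over Low AS. ENSSSCG00000020872 has the highest slope, 1.22, and no point of either panel passed the adjusted threshold.

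Chicory called none of the 36 in edgeR with Benjamini-Hochberg adjustment, against a background of 0.00768%, and none had an unadjusted p under 0.05, against 0.875% of all genes. All 36 were on in some and off in some pigs of each diet. RNF181 was on in 10 of 17 control pigs and 6 of 15 chicory pigs, the pig without an AS group included, with a log2 difference over the other 31 of -0.69 (SE 0.83). ZNF185 differed by -0.55 (SE 0.84), PGGHG by -0.38 (SE 0.53) and PPP1R11 by 0.38 (SE 0.53). The difference of ZNF185 was -1.28 without Low AS chicory replicate 1, -1.67 with limma voom and -2.78 with sow as a block. The interaction of AS group and diet called none as well (background 0.0%), with 1 of the 36 at an unadjusted p under 0.05, against 3.63% of all genes.

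Some of the 36 shared their states, which is given as counts of libraries. OPN4 and SNCG went opposite ways: of 17 libraries with OPN4 on, SNCG was on in 1 and off in 9, and of 7 libraries with OPN4 off, SNCG was on in 6 and off in none. ENSSSCG00000010355 followed SNCG, with 7 of 9 libraries off where SNCG was off and none on. ENSSSCG00000010353 followed OPN4, off in 5 of the 7 libraries with OPN4 off and off in none with OPN4 on. ZNF185 was off in all 14 libraries with ENSSSCG00000026657 on. PGGHG was on in all 7 with ENSSSCG00000027871 on. SLC5A2 was on in 6 and off in none of the 10 with ENSSSCG00000016268 on.

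In RefSeq's gene order (assembly Sscrofa11.1, used for names and neighbours only) the 14 genes with a symbol were found, and OPN4 and SNCG lie near each other on chromosome 14. Between them lie LDB3, BMPR1A and MMRN2, of which BMPR1A, a receptor for bone morphogenetic proteins, was on in all 32 libraries at 6.28 to 31.8 CPM (median 14.5). MMRN2, an endothelial matrix protein, was on in none and off in 22. Of the 17 nearest neighbours with counts, none met the rule. Only 36 of 25322 genes met it, so none among so few neighbours says little about the regions. Beside CYP1A2 on chromosome 7, CSK, a kinase that restrains Src kinases, was on in 31 libraries and off in none, and CYP1A1, a related cytochrome, was on in none. PRMT7, an arginine methyltransferase, and OGFOD1, an oxygenase, next to SMPD3, were on in all 32. NDUFA6, a subunit of respiratory complex I beside SMDT1, was on in 26 and off in 3, and DSG2, a desmosomal cadherin beside DSG3, was on in 12 and off in none.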

How the data were processed

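Polyadenylated testis RNA of 32 pigs was sequenced from libraries made with a stranded TruSeq kit, per the labels' protocols. The authors deposited 1 table per pig of whole-number read counts per Ensembl identifier, with no normalization. Per the submitters' processing notes, HTSeq 0.6.0 and SAMtools 1.3.1 were used together with STAR, cutadapt 1.8.1 and Trimmomatic 0.33, with no order stated. Not given in the sources used here are the build, annotation release, strand setting and STAR version, so overlapping, antisense and near-identical genes may share reads, and no coordinates or sequences are printed. The 5 closing rows of each table, for reads given to no gene, stayed out of library sizes and tests. Per library, 20.6 to 39.6% of reads fell in no annotated gene.

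CPM for levels and states was each count divided by the library's total gene count. Tests used edgeR 4.0.16 in R 4.3.3 (filterByExpr, TMM, quasi-likelihood F test, Benjamini-Hochberg at 0.05) across all genes, with limma voom 3.58.1 and DESeq2 1.42.0 as alternatives, and the code was tested on simulated data. SE is the log2 difference divided by the square root of F. Replicate numbers only name pigs. Each library is labelled as a different pig, and p-values measure the spread between these pigs. Values were named for up to 8 called genes per test, by smallest p, or up to 4 with a symbol where none passed, the 5 with the highest on medians, and the genes nearest the rule's limits. The members, lists and tests were chosen with earlier results of these data known.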

Additional observations from a re-analysis of the deposited data

Results flagged for a closer look

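In 3 of 16 groups of 4 to 10 libraries looked at, 1 library lay far from the others, and about 1 in 20 such groups does so by chance. ENSSSCG00000016268 reached 2.53 CPM in 1 numbered library, where the next highest had 1.23 CPM. ENSSSCG00000028006 reached 1.92 CPM in 1 numbered library, where the next highest had 0.843 CPM. DSG3 was at 0.0491 CPM in 1 pig of the sow with most pigs and at 0 in the others, a single value below the off limit.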

How the results depend on the processing

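The number of genes that met the rule was 11 with 10 CPM for on, 23 with 0.3 CPM for off, 68 with 4 libraries each way and 14 with 8 each way. It was 15 in plain libraries alone, 60 when every library was thinned to the smallest total (34 of the 36 among them) and 18 with CPM by all reads (14 of the 36 among them). In plain libraries alone 79.6% of combinations of gene and same-sow pair and 56.8% of those with other pairs were alike. The sow test called 19 with DESeq2, 20 with no filter on low counts and 2 in plain libraries alone. With cell scores it called 12 with DESeq2, 13 with no filter, 3 with no library set term and 11 in plain libraries alone. The cell scores at given sow called 5 with limma voom and 5 with no library set term, and the cell scores over all pigs called 3 when 3 scores were used. The library set test called 6 with a block for sow, with a background of 17.0%. The androstenone test called 1 with DESeq2 and 1 with no filter. Apart from the block for sow, these test counts come without the share of all genes called, so they are not results particular to the 36. Leaving out 1 pig gave 6 to 21 genes in the sow test (background 0.228 to 16.1%) and 4 to 15 with cell scores (0.118 to 2.54%). It gave 5 to 11 for the cell scores at given sow (10.5 to 31.8%) and 0 to 1 for androstenone (0.00758 to 0.0305%). The cause of these changes was not tested. Of differences that had not passed, CDH17 for AS was 0.15 in plain libraries alone, CYP1A2 -0.31 and OPN4 -0.016 with 4 cell scores in the AS model, and RNF181 for diet 0.28 with limma voom. With a block for sow the androstenone slopes were 0.89 for DSG3, -0.093 for OPN4 and 0.22 for SNCG. Of 400 other values for single genes, 324 kept direction and side of the threshold and 69 no longer passed, as did 55 of 740 values with 1 pig left out. Sow was used as a block in the AS, diet, androstenone and library set tests. By replicate number, no paired analysis was possible because the numbers follow accession order and stand for no shared animal or litter. Alternatives without Low AS chicory replicate 1 were chosen after seeing the data. Depth limits the off state most in plain libraries, where the off limit can equal as few as 1.11 counts.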
